A study of Mus musculus with 7 samples.

Results

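The cytosolic ribosomal protein genes encode the proteins of the ribosome that translates cytoplasmic mRNA. The set holds the 80 protein-coding genes, of 43629 genes counted, whose symbol is Rpl or Rps with a number and at most an a, l, x or y suffix, or is Rplp0, Rplp1, Rplp2 or Rpsa. Rps6k kinase genes and pseudogenes were left out, and symbols and biotypes come from GENCODE M21. There were 49 large subunit genes and 31 small subunit genes, and all 80 passed the filter on low counts.

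Poly(A) RNA was sequenced from 7 libraries of mouse E14 cells, an embryonic stem (ES) cell line of 129/Ola background. KO XEN (2 libraries, knockout lines C4 and 5-3) and WT XEN (2 libraries, A and B, wild type) were Ago2 knockout and wild-type cells differentiated for 5 days towards extra-embryonic endoderm (XEN) in RPMI medium with serum, activin A at 10 ng/mL and all-trans retinoic acid at 0.1 µM. KO ESC (3 libraries, C4, 5-3_1 and 5-3_2) were Ago2 knockout ES cells kept undifferentiated in serum and LIF. Wild-type ES cells were not used here, so WT XEN and KO ESC differ in both genotype and differentiation. Ago2 is an Argonaute protein, which binds microRNAs and silences their targets. The kind of lesion in each line and whether libraries came from separate cultures are not stated, so p-values measure only the spread between these libraries.

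A ribosome holds a single copy of nearly every ribosomal protein, and the stalk proteins Rplp1 and Rplp2 are the exception. The small subunit reads the mRNA, and the large subunit forms peptide bonds and passes the chain out through a tunnel. In vertebrates the mRNAs begin with a 5′ terminal oligopyrimidine (TOP) tract, a C followed by a run of C and T, through which mTOR signalling controls their translation, a step that mRNA counts do not measure. Fast-growing cells such as ES cells devote much of their transcription to making ribosomes.

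The TOP tract and the start site that carries it can be read in the promoters. RefSeq (GRCm38.p6) listed promoters for 60 of the 80 genes. The sequences run from 100 bases before the listed start to 20 bases after it. Capitals mark a pyrimidine run of at least 5 bases, counted from a C within 5 bases of the start. The bases before that C were not checked, so the full run can begin further upstream. The first 5 are examples from the 8 genes that have such a run and were called higher in KO XEN than in WT XEN. Each of these calls, that of Rps15a included, was lost under some other setting. The last 4 have no such run within 5 bases of the listed start. Pyrimidine runs do lie further from it in their sequences, as in Rpl5, so a TOP tract from another start is not excluded. Of these, Rpl37 is shown because its call in that comparison held under every setting run. Rpl5, Rpl10l and Rpl39l are shown because they were lower in both differentiated groups than in KO ESC.
Rpl15 (chr14:18270967-18271086, minus strand): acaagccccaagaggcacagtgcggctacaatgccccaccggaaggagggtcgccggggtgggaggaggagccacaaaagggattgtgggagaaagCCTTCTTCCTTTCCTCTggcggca
Rpl13a (chr7:45128726-45128845, minus strand): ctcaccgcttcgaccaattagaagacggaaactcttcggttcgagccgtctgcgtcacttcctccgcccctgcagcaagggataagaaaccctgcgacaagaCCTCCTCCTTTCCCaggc
Rpl27a (chr7:109519095-109519214, plus strand): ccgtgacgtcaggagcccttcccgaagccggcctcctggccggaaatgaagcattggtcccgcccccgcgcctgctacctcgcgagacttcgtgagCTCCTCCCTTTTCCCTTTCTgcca
Rps15a (chr7:118116128-118116247, minus strand): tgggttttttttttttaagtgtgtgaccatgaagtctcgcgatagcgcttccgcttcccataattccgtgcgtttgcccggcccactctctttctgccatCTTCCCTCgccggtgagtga
Rps26 (chr10:128626487-128626606, minus strand): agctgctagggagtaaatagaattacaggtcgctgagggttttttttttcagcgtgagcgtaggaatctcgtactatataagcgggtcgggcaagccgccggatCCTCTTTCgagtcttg
Rpl37 (chr15:5116513-5116632, plus strand): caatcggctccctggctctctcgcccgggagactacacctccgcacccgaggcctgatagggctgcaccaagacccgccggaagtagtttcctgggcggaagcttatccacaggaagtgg
Rpl5 (chr5:107900428-107900547, plus strand): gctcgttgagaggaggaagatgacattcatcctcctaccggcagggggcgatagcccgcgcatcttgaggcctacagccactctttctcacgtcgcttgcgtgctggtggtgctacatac
Rpl10l (chr12:66284382-66284501, minus strand): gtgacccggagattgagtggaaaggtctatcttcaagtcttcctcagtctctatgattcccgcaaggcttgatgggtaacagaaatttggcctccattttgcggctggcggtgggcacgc
Rpl39l (chr16:10170128-10170247, plus strand): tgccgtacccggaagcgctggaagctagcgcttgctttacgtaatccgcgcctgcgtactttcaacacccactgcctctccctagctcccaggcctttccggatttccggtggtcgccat

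A pyrimidine run of this kind was found within 5 bases of a listed start in 28 of the 60 genes (46.7%), against 21.4% of 17432 other protein-coding genes. At the listed start itself it was found in 13 of 60 (21.7%), against 2.60% of the others. The letters CCGGAAG of the ETS factor motif, searched on both strands of 300 bases (250 before the start to 50 after), were in 25 of 60 (41.7%), against 12.8% of the others. The YY1 letters AAGATGGC were in 8.33% against 3.55%, the Sp1 letters GGGCGG in 60.0% against 49.2%, and the TATA box letters TATAAA in 10.0% against 14.8%. A gene with several listed starts counts if any start matches, and a match is a description of the letters only.

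The 7 libraries held 13941826 counts (KO XEN C4) to 48650113 counts (KO ESC 5-3_2). Ago2 itself was at 122 CPM (counts per 1e6 counts) in KO XEN C4 and 9.94 CPM in KO XEN 5-3, against 394 and 432 CPM in WT XEN, and 94.4, 9.37 and 9.65 CPM in KO ESC C4, 5-3_1 and 5-3_2. Line C4 therefore kept more Ago2 transcript than line 5-3 in both states. The summed level of 12 extra-embryonic endoderm markers was 2639 and 3547 CPM in KO XEN, against 41021 and 57111 CPM in WT XEN, and 569 to 589 CPM in KO ESC. By the edgeR test used for all genes, 0 of the 12 were higher and 11 lower in KO XEN against WT XEN. The summed level of 10 fibroblast markers was 14661 and 18515 CPM in KO XEN, against 3399 and 1789 CPM in WT XEN, and 894 to 1341 CPM in KO ESC (8 higher and 1 lower in KO XEN against WT XEN). KO XEN thus stood highest in fibroblast markers, and below WT XEN in endoderm markers. Of 10 ES cell markers 0 were higher and 7 lower in KO XEN against WT XEN, and of 10 neuronal markers 6 were higher and 0 lower. Beside these marker counts stand 22.3% of all tested genes called higher and 23.9% called lower in this comparison. The neuronal markers summed to 137 and 135 CPM in KO XEN, against 33.0 and 24.7 CPM in WT XEN, and 519 to 556 CPM in KO ESC. The ES cell markers summed to 76.7 and 101 CPM in KO XEN, against 894 and 938 CPM in WT XEN, and 6319 to 6484 CPM in KO ESC. The part that these markers, Ago2 level and depth play in the results was not tested. Cell composition and genotype cannot be told apart between KO XEN and WT XEN, nor can fewer cells of a type and less RNA per cell in these bulk libraries.

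Ribosomal protein genes took a smaller share of all counts in KO XEN and WT XEN than in KO ESC. The share was 1.72% (95% Wilson interval 1.71 to 1.73) in KO XEN C4 and 1.69% (1.69 to 1.69) in KO XEN 5-3. In WT XEN A and B it was 1.46% (1.46 to 1.47) and 1.21% (1.20 to 1.21). In KO ESC it was 2.51% (2.51 to 2.52), 2.72% (2.71 to 2.72) and 2.38% (2.37 to 2.38) for C4, 5-3_1 and 5-3_2. The 3 groups did not overlap. The intervals cover counting error only, and the spread between libraries was wider, at 1.71% ± 0.0224 in KO XEN, 1.33% ± 0.181 in WT XEN (SD, n = 2 each) and 2.54% ± 0.170 in KO ESC (SD, n = 3). Counts on mitochondrial transcripts stood in another order, with 0.781% and 0.979% in KO XEN, against 1.94% and 2.64% in WT XEN, while KO ESC had 2.79% to 3.26%. Taking them out of the total left the mean shares of ribosomal protein genes at 1.72%, 1.37% and 2.61% in the same group order.

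The balance between the subunits differed by group as well. Counts on large subunit genes divided by counts on small subunit genes came to 0.986 ± 0.0150 in KO XEN, 1.09 ± 0.0208 in WT XEN (SD, n = 2 each) and 1.28 ± 0.0139 in KO ESC (SD, n = 3). The 7 libraries ran from 0.976 in KO XEN 5-3 to 1.30 in KO ESC 5-3_2, and no library of a group reached into another group. Rpl4, the gene with most counts in every library, held 9.41% and 8.27% of ribosomal protein counts in KO XEN, against 10.5% and 12% in WT XEN, while in KO ESC it held 12.1% to 14%.

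**Figure D1:**
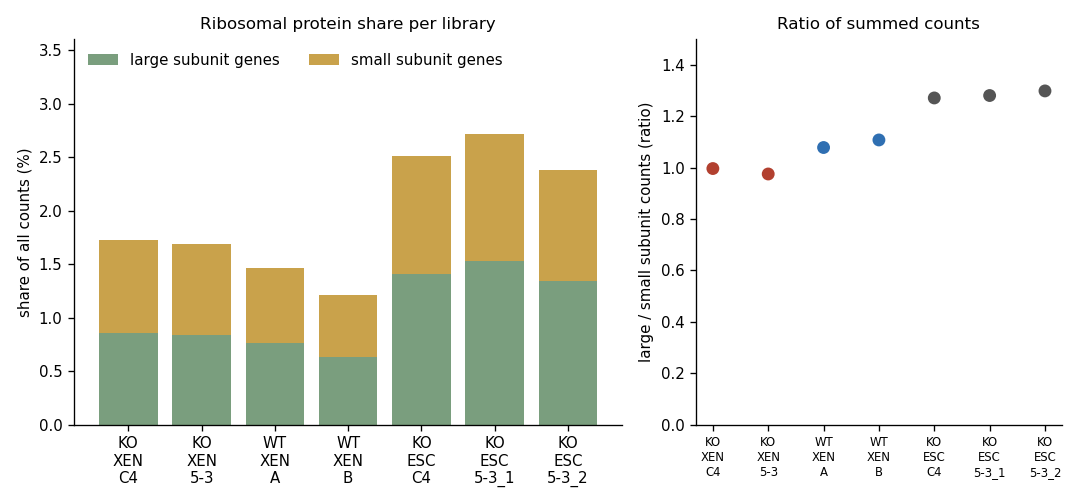
The left panel stacks the share of each library's counts (%) on large and small subunit ribosomal protein genes, and the right panel gives the ratio of large to small subunit counts, 1 bar or point a library. The KO ESC libraries stand at 2.38% to 2.72%, above the KO XEN and WT XEN libraries, and the ratio is lowest in KO XEN and highest in KO ESC.

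Single genes were tested with edgeR's quasi-likelihood test over all 18426 genes that passed the filter, and a gene was called at a Benjamini-Hochberg adjusted p under 0.05. In KO XEN against KO ESC, 2 ribosomal protein genes were called higher and 49 lower, which is 2.5% and 61.3% of the set, beside 34.8% of all tested genes called higher, 34.3% called lower and 69% called in either direction. The median log2 fold change of the set was -0.79, against -0.08 over all tested genes. In WT XEN against KO ESC, 0 were called higher and 65 lower (81.2%), beside 30.3% of all genes called lower, 32.2% called higher and 62.5% called in either direction. Of the 80 genes, 2 had a positive log2 fold change there, 0 of them with an unadjusted p under 0.05, and DESeq2 also called 0 higher. The median was -1.09, against -0.03 over all genes. Both comparisons share the KO ESC libraries.

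In KO XEN against WT XEN the differences were smaller and mostly upward. There, 16 genes were called higher (20%, beside 22.3% of all tested genes called higher) and 1 lower (1.25%, beside 23.9% called lower and 46.2% called in either direction). The share called higher is close to that of all genes. The median log2 fold change was 0.35, against 0 over all genes, with 66 of 80 values above 0. The middle 50% of the set lay between 0.11 and 0.57, a narrower range than the -0.98 to 0.82 of all tested genes. The count of 16 depends on the libraries: 8 genes were called higher without KO ESC 5-3_1 and 10 without KO ESC 5-3_2. Calls higher over all tested genes fell as well, from 4115 of 18426 to 3472 of 18116 and 3423 of 18096. Leaving out either KO XEN library or WT XEN B left 1 library in that group. Fewer genes still were then called higher, both in the set and over all tested genes.

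**Figure D2:**
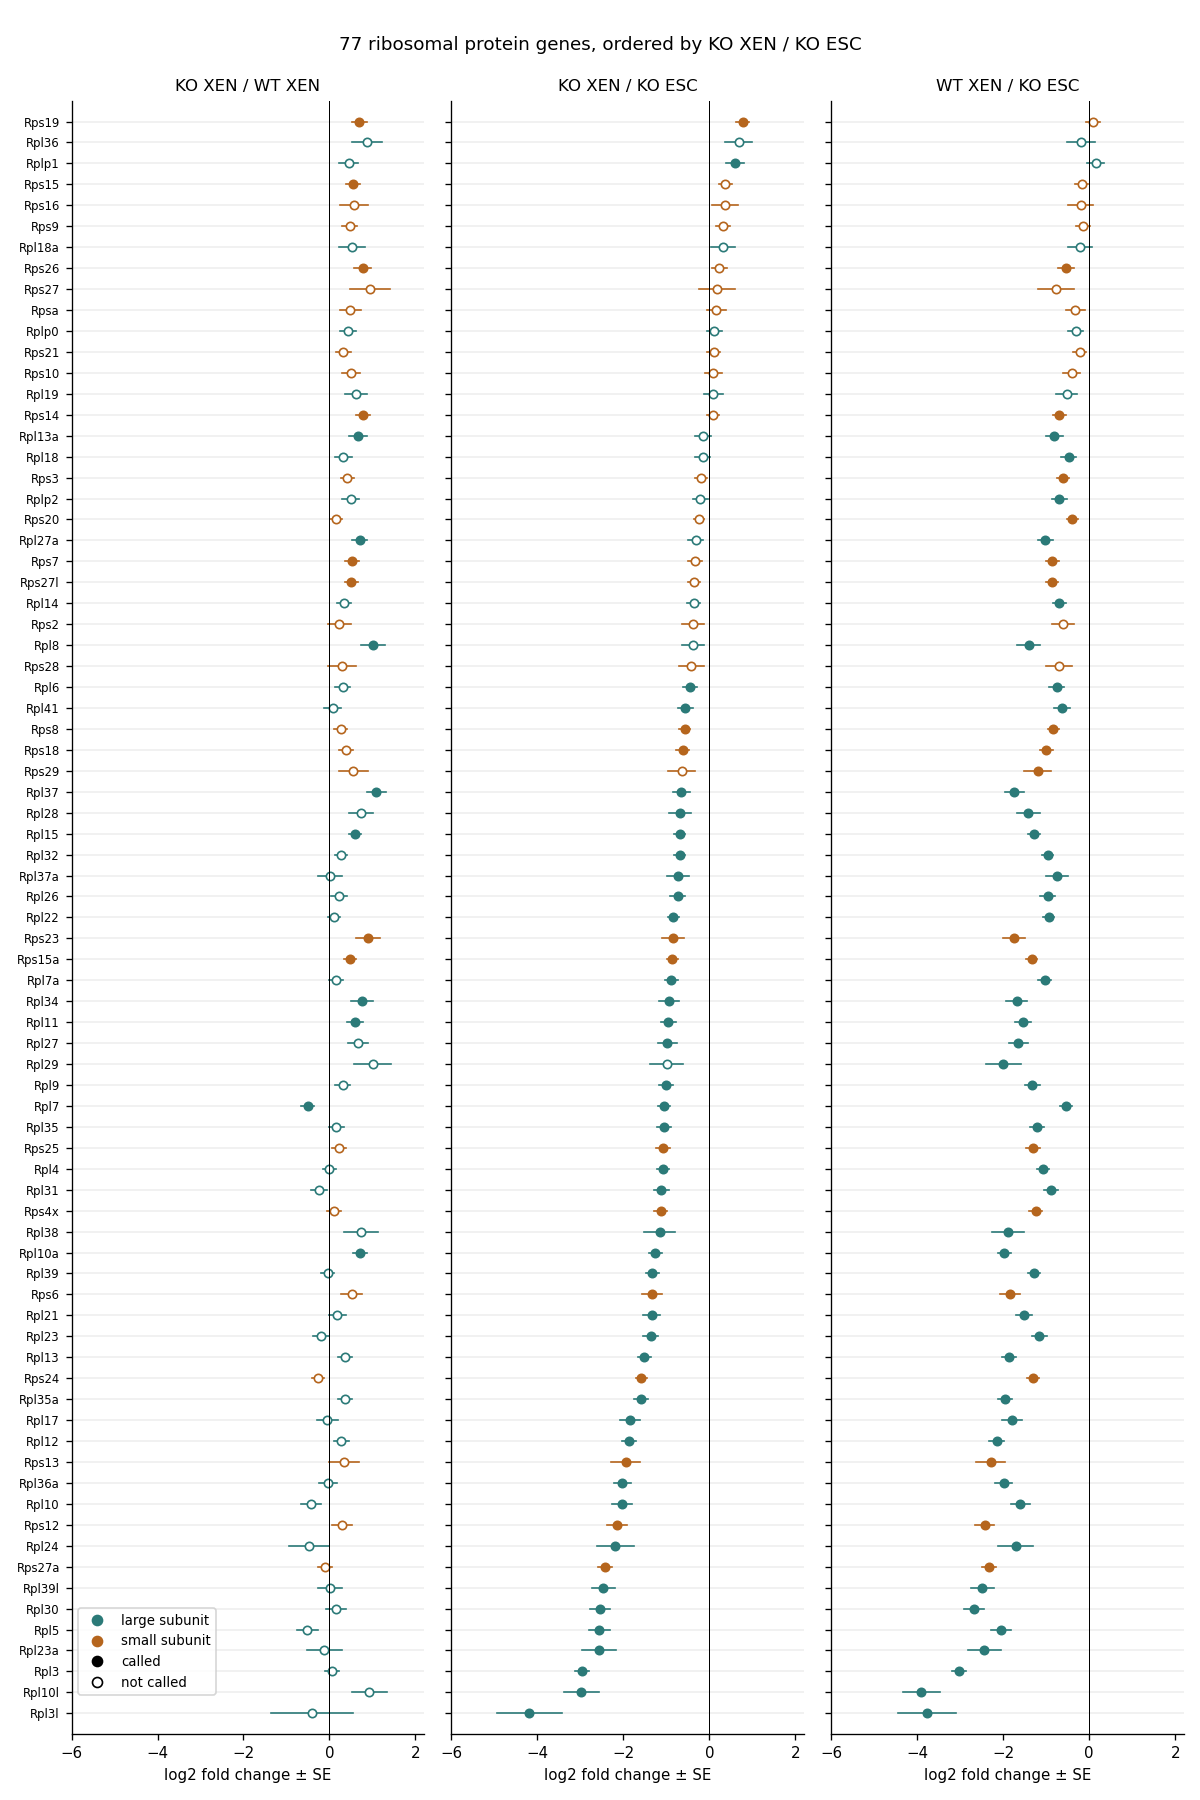
Each row is 1 of 77 of the ribosomal protein genes and each panel a comparison, with the log2 fold change (point) and its standard error (line) from the edgeR fit, filled where called. In the middle and right panels most points lie left of 0, with Rps19 and Rplp1 called to the right in the middle panel, while in the left panel most points lie between 0 and 1.

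Calls were more frequent among large than among small subunit genes in the comparisons with KO ESC. Large subunit genes were called lower in 37 of 49 cases in KO XEN against KO ESC (median log2 fold change -0.99) and in 44 of 49 in WT XEN against KO ESC (-1.32). Small subunit genes were called lower in 12 of 31 (-0.35) and 21 of 31 (-0.77) in those comparisons. Beside these stand 34.3% and 30.3% of all tested genes called lower. In KO XEN against WT XEN, 8 large subunit genes were called higher and 1 lower (median 0.30). Among small subunit genes 8 were called higher and 0 lower (median 0.47). The shares called higher were 16.3% and 25.8%, beside 22.3% of all tested genes. A further set held 7 genes of ribosomal proteins or like-named relatives, Rpl7l1 among them, that the naming rule leaves out by its spelling. It gave 1 higher and 0 lower in KO XEN against WT XEN (0.33), with Rpl22l1 the one called higher (1.76-fold, edgeR adjusted p = 0.0367). Against KO ESC it gave 0 higher and 5 lower in KO XEN (-1.20), and 0 higher and 5 lower in WT XEN (-1.30). The difference between the subunits was not tested, and these counts and medians are descriptions.

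Levels differed between genes far more than between groups. Per kilobase of exon, the mean over the 7 libraries ran from 0.328 CPM for Rpl3l to 1135 CPM for Rpl4, with a median gene at 53.6 CPM. High levels per kilobase were also found for Rpl8 (840.2 CPM), Rplp1 (765 CPM), Rpl32 (729 CPM) and Rps15 (703 CPM). The length used is that of all annotated exons of a gene. From 0% (Rpl36) to 89.8% (Rps15a) of it lay outside the gene's main transcript, so the order of genes by level per kilobase is uncertain. Ribosomal protein genes have many processed pseudogenes, and how reads that match several places were counted is not given in the sources used here, so levels of genes with near-identical copies are uncertain. Of the 50-base windows of a gene's main transcript, a median of 53.5% also occurred exactly in a transcript of another annotated gene, from 0% for genes such as Rpl3l and Rpl39l to 98.6% for Rps27.

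Genes with more sharing had lower levels per kilobase, with the limit from exon length given above. The median CPM per kilobase was 108 in the 12 genes with under 25% of windows shared, 77.2 in the 22 genes from 25% to 50%, 61.5 in the 22 genes from 50% to 75% and 20.2 in the 24 genes above that. Over the 80 genes the correlation of the shared percentage with log2 level was -0.35 (Pearson) and -0.40 (Spearman), as a description over genes measured in the same libraries. The same correlations with the log2 fold change were -0.03 (Pearson) and -0.05 (Spearman) in KO XEN against WT XEN, -0.04 and -0.17 in KO XEN against KO ESC, and -0.04 and -0.17 in WT XEN against KO ESC. Median log2 fold changes in WT XEN against KO ESC were -1.18, -0.85, -0.91 and -1.46 from the least to the most shared group. Each gene is therefore compared with itself across groups of libraries.

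An extreme case lies just outside the naming rule. Rps3a1, a small subunit protein gene whose symbol has a digit after its letter suffix, had 961 counts in KO ESC C4, while the pseudogene row Rps3a3, chosen after its values were seen, had 21748 counts in that library. In CPM, Rps3a1 averaged 6.0 ± 1.48 in KO XEN, against 5.39 ± 0.0735 in WT XEN, and 20.8 ± 2.71 in KO ESC (SD, n = 2, 2 and 3). Pseudogene Rps3a3 averaged 311 ± 11.3 for KO XEN, 258 ± 3.91 for WT XEN and 558 ± 34.1 for KO ESC. The 253 pseudogene rows with symbols ending in -ps and a number, a set without Rps3a3, together took 0.607% of counts in KO XEN, against 0.440% in WT XEN, and 0.794% in KO ESC, so that their share was also highest in KO ESC. Of the 126 such rows tested, 9 were called higher and 0 lower in KO XEN against WT XEN (median 0.38). Against KO ESC, 5 were called higher and 32 lower in KO XEN (-0.50), and 2 higher and 51 lower in WT XEN (-0.80). The 7.14% called higher against WT XEN stand beside 22.3% of all tested genes. The 25.4% and 40.5% called lower against KO ESC stand beside 34.3% and 30.3% of all tested genes.

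**Figure D3:**
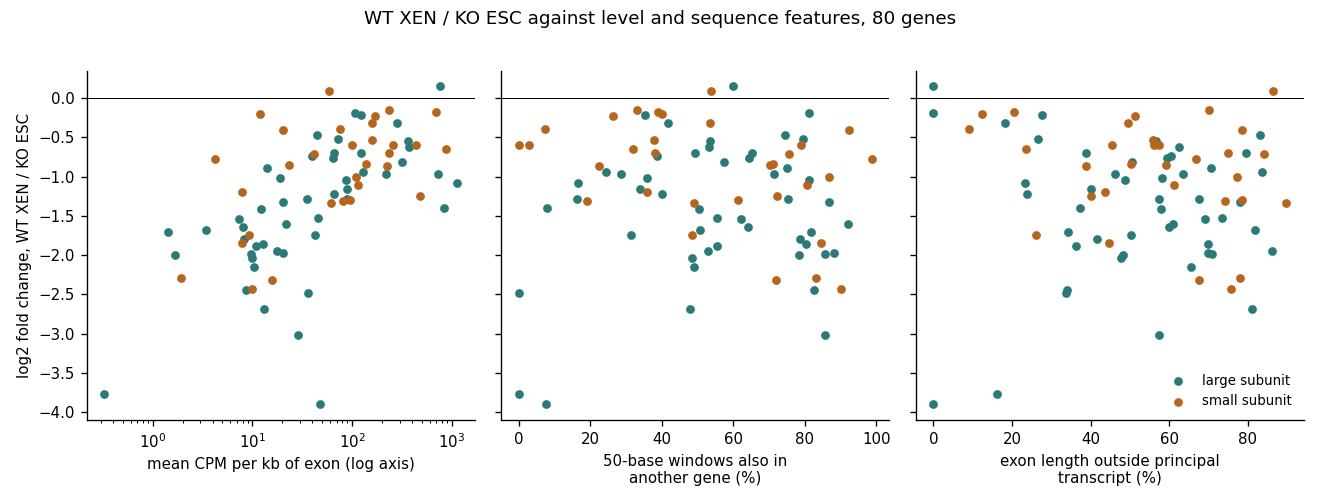
The log2 fold change of WT XEN against KO ESC for the 80 genes is set against mean level (CPM per kilobase of exon, log axis), the percentage of 50-base windows also found in another gene, and the percentage of exon length outside the main transcript. Low genes lie lower in the left panel, and the other panels show no clear slope.

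Lower-expressed genes had the larger negative fold changes. Over the 80 genes the log2 level and the log2 fold change correlated at 0.55 (Pearson) and 0.51 (Spearman) in KO XEN against KO ESC, at 0.61 and 0.64 in WT XEN against KO ESC, and at 0.07 and -0.02 in KO XEN against WT XEN. These values are descriptions over genes, and the mean level was taken from the same libraries as the fold changes.

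Among the large subunit genes, those of the stalk that recruits translation factors gave few calls. Rplp0, the stalk's base, had 542 and 504 CPM in KO XEN, against 447 and 331 CPM in WT XEN, and 445, 543 and 463 CPM in KO ESC, and it was called in no comparison. Rplp1 (chr9:61913284-61914542, mm10), which binds Rplp0 with Rplp2, had 479 and 500.3 CPM in KO XEN, against 444 and 275 CPM in WT XEN, and 293, 353 and 328 CPM in KO ESC. Both KO XEN libraries lay above all KO ESC libraries, and Rplp1 was called higher there at 1.51-fold (log2 fold change 0.59 ± 0.21 SE, edgeR adjusted p = 0.0319). That call was lost in 9 of 15 other settings, among them upper-quartile scaling, library totals and each omission of a KO XEN or KO ESC library. Its adjusted p-values ran from 0.00644 to 0.186 over the 15.

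Rpl12, which sits at the foot of the stalk, went the other way. It had 18.5 and 17.4 CPM in KO XEN, against 14.9 and 14.7 CPM in WT XEN, and 72.6, 66.3 and 58.6 CPM in KO ESC, so all differentiated libraries were far below the ES cell libraries. It was 3.67-fold lower in KO XEN (log2 fold change -1.87 ± 0.17 SE, edgeR adjusted p = 3.08e-05) and 4.45-fold lower in WT XEN (-2.15 ± 0.17 SE, adjusted p = 2.86e-05) than in KO ESC. Of the 4 stalk genes, 1 was called higher and 1 lower in KO XEN against KO ESC. In WT XEN against KO ESC 2 were called lower, and in KO XEN against WT XEN 0 were called. In the same order, 69%, 62.5% and 46.2% of all tested genes were called in either direction.

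All 4 genes of the 5S particle and p53 checkpoint list were called lower in both KO XEN and WT XEN than in KO ESC. Of the whole set, 61.3% and 81.2% were called lower in these comparisons, and of all tested genes 34.3% and 30.3%. Rpl5 and Rpl11 form a particle with 5S rRNA that, when free, binds Mdm2 and stabilises p53. Rpl5 (chr5:107900502-107909005, mm10) had 13.4 and 10.9 CPM in KO XEN, against 14.7 and 19.9 CPM in WT XEN, and 85.9, 61.6 and 66.1 CPM in KO ESC. It was 5.89-fold lower in KO XEN (log2 fold change -2.56 ± 0.24 SE, edgeR adjusted p = 4.29e-05) and 4.12-fold lower in WT XEN (-2.04 ± 0.23 SE, adjusted p = 0.000172) than in KO ESC. Rpl11 had 13.9 and 16.1 CPM in KO XEN, against 10.2 and 9.68 CPM in WT XEN, and 28.4, 31.9 and 27.0 CPM in KO ESC. It was 1.93-fold lower in KO XEN and 2.92-fold lower in WT XEN than in KO ESC (adjusted p = 0.0019 and 0.00022 by edgeR). Rpl11 was also called higher in KO XEN than in WT XEN (0.59 ± 0.19 SE, adjusted p = 0.0373). The Rpl5 value there was -0.52 ± 0.24 SE (adjusted p = 0.116), and the difference between these genes was not tested. The Rpl11 call against WT XEN was lost with no filter on low counts and when any 1 of the 7 libraries was left out, with adjusted p-values up to 0.282.

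Rpl23 and Rpl26, large subunit proteins, are also reported to act on the p53 pathway. Rpl23 averaged 92.7 ± 12.1 CPM in KO XEN, 107 ± 13.3 CPM in WT XEN (SD, n = 2 each) and 238 ± 30.2 CPM in KO ESC (SD, n = 3). Rpl26 averaged 258 ± 9.40 CPM in KO XEN, 219.6 ± 15.4 CPM in WT XEN and 429 ± 72.7 CPM in KO ESC with the same n. Both were called in each comparison with KO ESC, with log2 fold changes between -1.36 and -0.73. The Rpl26 call in KO XEN against KO ESC had an adjusted p of 0.0511 without both C4 libraries.

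Of the 8 genes at the polypeptide exit tunnel, 7 were called lower in KO XEN against KO ESC and 7 in WT XEN against KO ESC. Of the whole set, 61.3% and 81.2% were called lower there, and of all tested genes 34.3% and 30.3%. Between KO XEN and WT XEN 0 of the 8 were called (median -0.02), beside 46.2% of all tested genes. Rpl4 (chr9:64173375-64178666, mm10), whose protein lines the tunnel, had 1641 and 1435 CPM in KO XEN, against 1529 and 1548 CPM in WT XEN, and 3377, 3167 and 3245 CPM in KO ESC. The KO XEN and WT XEN libraries overlapped, well below every KO ESC library, and the log2 fold changes against KO ESC were -1.09 ± 0.14 SE in KO XEN (edgeR adjusted p = 0.000223) and -1.08 ± 0.14 SE in WT XEN (adjusted p = 0.000314). Rpl23a, which docks the signal recognition particle at the tunnel's exit, had 2.54 and 2.18 CPM in KO XEN, against 2.69 and 2.41 CPM in WT XEN, and 17.3, 16.3 and 8.05 CPM in KO ESC, with the last library below the other two. It was 5.90-fold lower in KO XEN (-2.56 ± 0.40 SE, adjusted p = 0.000624) and 5.44-fold lower in WT XEN (-2.44 ± 0.39 SE, adjusted p = 0.000901). The gene not called was Rpl19, with 91.0 and 79.8 CPM in KO XEN, against 59.7 and 51.2 CPM in WT XEN, and 86.1, 97.1 and 56.6 CPM in KO ESC, and the KO ESC libraries spanned most of that range. The other 5, Rpl17, Rpl22, Rpl31, Rpl35 and Rpl39, were between 1.79-fold (Rpl22) and 3.6-fold (Rpl17) lower in KO XEN and between 1.85-fold (Rpl31) and 3.48-fold (Rpl17) lower in WT XEN than in KO ESC.

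Apart from the paralogs described further on, Rpl3 had the lowest log2 fold change of the set in both comparisons with KO ESC. Rpl3 (chr15:80077791-80091868, mm10), which reaches towards the peptidyl transferase centre, had 23.6 and 23.1 CPM in KO XEN, against 20.2 and 24.4 CPM in WT XEN, and 166, 196 and 181 CPM in KO ESC. The KO XEN and WT XEN libraries overlapped (log2 fold change 0.06 ± 0.16 SE, adjusted p = 0.773). Against KO ESC, Rpl3 was 7.76-fold lower in KO XEN and 8.11-fold lower in WT XEN (edgeR adjusted p = 3.97e-06 and 6.91e-06). Of its windows 85.6% are shared with other genes. Among the other genes with high counts per kilobase, Rpl32 was 1.62-fold lower in KO XEN and 1.95-fold lower in WT XEN (adjusted p = 0.0015 and 0.000361). Rpl30, a small protein of the large subunit, had 12.7 and 13.2 CPM in KO XEN, against 11.5 and 12 CPM in WT XEN, and 59.0, 73.3 and 93.6 CPM in KO ESC. It was 5.80-fold lower in KO XEN and 6.42-fold lower in WT XEN (adjusted p = 3.36e-05 and 4.21e-05).

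Of the large subunit genes, 8 were called higher in KO XEN than in WT XEN. Rpl37 (chr15:5116645-5119140, mm10) had 65.6 and 66.2 CPM in KO XEN, against 32.7 and 29.3 CPM in WT XEN, and 80.5, 129 and 101 CPM in KO ESC. WT XEN was lowest, KO XEN lay between, and no group overlapped another. Rpl37 was 2.13-fold higher in KO XEN than in WT XEN (log2 fold change 1.09 ± 0.22 SE, edgeR adjusted p = 0.00553), and of the 15 described genes called in this comparison it alone kept its call under all 15 other settings (adjusted p from 0.000331 to 0.0449). It was 1.57-fold lower in KO XEN (adjusted p = 0.0213, lost without KO ESC 5-3_1 or either KO XEN library, up to 0.0987) and 3.34-fold lower in WT XEN (adjusted p = 0.000255) than in KO ESC.

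Rpl8, which lies near the peptidyl transferase centre, had 1124 and 1192 CPM in KO XEN, against 659.5 and 483 CPM in WT XEN, and 1035, 1837 and 1662 CPM in KO ESC. KO XEN lay within the range of KO ESC and above both WT XEN libraries, with a 2.03-fold difference from WT XEN (log2 fold change 1.02 ± 0.28 SE, edgeR adjusted p = 0.0193). KO ESC C4 was below the other KO ESC libraries. Rpl10a, the protein of the L1 stalk where spent tRNA leaves, had 35.1 and 30.9 CPM in KO XEN, against 18.9 and 21.4 CPM in WT XEN, and 81.1, 77.7 and 78.1 CPM in KO ESC. It was 1.64-fold higher in KO XEN than in WT XEN (0.71 ± 0.16 SE, adjusted p = 0.00761). Rpl27a and Rpl13a were 1.62-fold and 1.59-fold higher (adjusted p = 0.0145 and 0.0314), and Rpl15 was 1.51-fold higher (adjusted p = 0.0104). Leaving out single libraries took the call from each of these 5 genes, with adjusted p-values up to 0.118 for Rpl8, 0.0533 for Rpl10a, 0.0945 for Rpl27a, 0.168 for Rpl13a and 0.0882 for Rpl15. The libraries concerned were WT XEN B, KO XEN C4 and KO XEN 5-3 for Rpl8, WT XEN A and KO XEN C4 for Rpl10a, and WT XEN A, WT XEN B and KO XEN 5-3 for Rpl15. For Rpl27a they were all 4 XEN libraries, and for Rpl13a they were KO ESC 5-3_1, WT XEN B and both KO XEN libraries.

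Rpl7 (chr1:16101295-16104662, mm10) was the single gene called lower in KO XEN than WT XEN. It had 612 and 619 CPM in KO XEN, against 856 and 891 CPM in WT XEN, and 1353, 1329 and 1141 CPM in KO ESC, so the groups stood in order without overlap. The protein is a component of the large subunit core. The log2 fold change was -0.51 ± 0.15 SE (edgeR adjusted p = 0.0259) against WT XEN and -1.05 ± 0.14 SE (adjusted p = 0.000296) against KO ESC. The call against WT XEN was lost without either KO XEN library, without WT XEN B and without both C4 libraries, with adjusted p-values up to 0.0923.

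**Figure D4:**
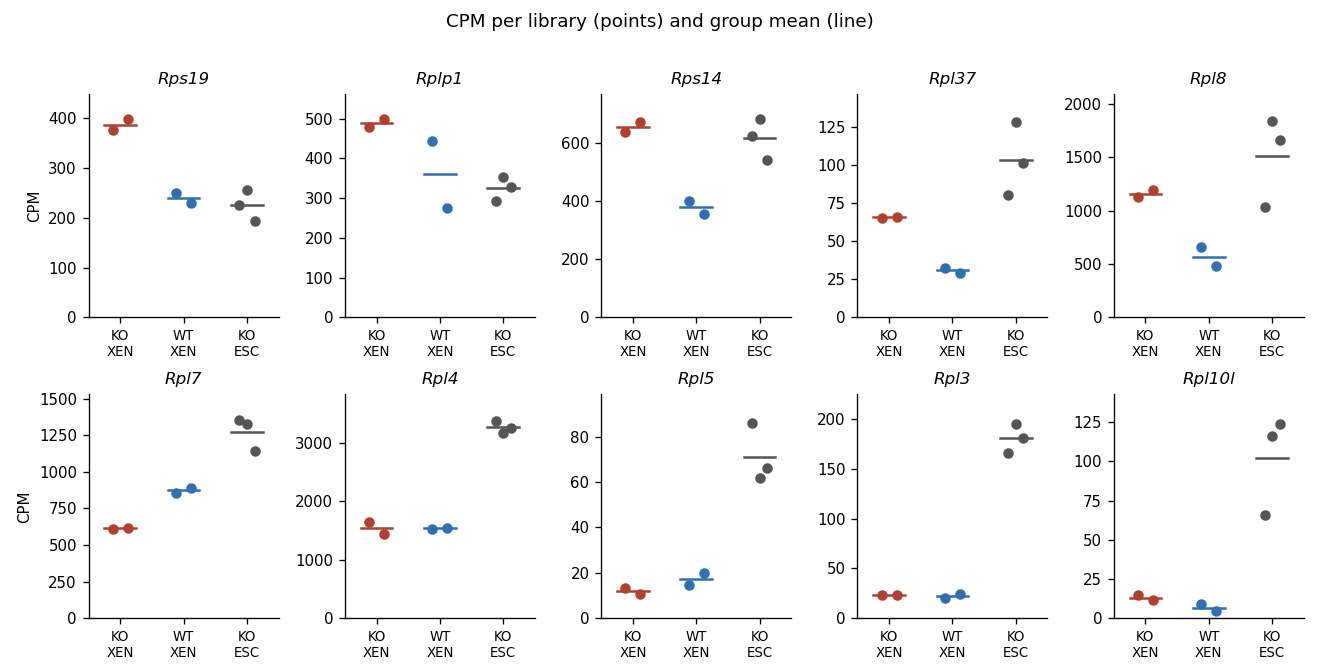
Level in CPM (linear axis from 0) of 10 ribosomal protein genes, with a point for each library and a line at the group mean. Rps19 and Rplp1 are highest in KO XEN, Rps14, Rpl37 and Rpl8 are lowest in WT XEN, Rpl7 is lowest in KO XEN, and Rpl4, Rpl5, Rpl3 and Rpl10l are low in both differentiated groups.

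In the small subunit, the 7 genes at the mRNA channel gave few calls in the comparisons with KO ESC. Between KO XEN and WT XEN 3 were called higher and 0 lower (median 0.47), so 42.9% were higher, beside 22.3% of all tested genes. In KO XEN against KO ESC 0 were called higher and 1 lower (-0.19), and in WT XEN against KO ESC 0 higher and 3 lower (-0.60). The 14.3% and 42.9% called lower there stand beside 61.3% and 81.2% of the set, and 34.3% and 30.3% of all tested genes. Rps26, whose protein contacts the mRNA where it leaves the channel, had 289.7 and 314 CPM in KO XEN, against 199 and 154 CPM in WT XEN, and 249, 301 and 219 CPM in KO ESC. WT XEN was below every other library, and Rps26 was 1.71-fold higher in KO XEN than in WT XEN (log2 fold change 0.78 ± 0.20 SE, edgeR adjusted p = 0.0147). Rps15, near the decoding site, had 541 and 549.8 CPM in KO XEN, against 418 and 327 CPM in WT XEN, and 418, 456 and 389.8 CPM in KO ESC. It was 1.46-fold higher in KO XEN than in WT XEN (adjusted p = 0.029). Rps23, at the decoding centre, averaged 9.67 ± 1.25 CPM in KO XEN, 5.20 ± 1.41 CPM in WT XEN and 17.5 ± 2.35 CPM in KO ESC (SD, n = 2, 2 and 3). It was called in all 3 comparisons. The calls of Rps26, Rps15 and Rps23 against WT XEN were lost without WT XEN B, KO XEN 5-3 or both C4 libraries, and those of Rps15 and Rps23 also with no filter on low counts and without KO XEN C4, KO ESC 5-3_1 or KO ESC 5-3_2, with adjusted p-values up to 0.192. The call of Rps23 in KO XEN against KO ESC was lost without KO XEN C4 or both C4 libraries, with adjusted p-values up to 0.141, and that of Rps26 in WT XEN against KO ESC with no filter on low counts and without KO ESC 5-3_1, WT XEN B, either KO XEN library or both C4 libraries, up to 0.198.

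The other 4 channel genes were called at most once. Rps3, at the mRNA entry, had 1193 and 1173 CPM in KO XEN, against 946 and 827 CPM in WT XEN, and 1246, 1425 and 1367 CPM in KO ESC. It was called lower in WT XEN than in KO ESC only (-0.60 ± 0.14 SE, edgeR adjusted p = 0.00632). Its adjusted p between KO XEN and WT XEN was 0.0538. Rps2, Rps9 and Rps28 were called in no comparison, and KO ESC 5-3_2 stood below the other KO ESC libraries for Rps2 (153 CPM against 258 and 247 CPM) and Rps28 (51.5 CPM against 108 and 104 CPM).

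Rps19 (chr7:24884371-24889806, mm10), a small subunit head protein, was the one small subunit gene called higher in KO XEN against KO ESC. It had 377 and 398 CPM in KO XEN, against 251 and 229 CPM in WT XEN, and 227, 257 and 194 CPM in KO ESC. Both KO XEN libraries lay above the other 5, which overlapped each other. Rps19 was 1.72-fold higher in KO XEN than in KO ESC (log2 fold change 0.78 ± 0.15 SE, edgeR adjusted p = 0.00224) and 1.62-fold higher than in WT XEN (0.69 ± 0.17 SE, adjusted p = 0.012), while WT XEN against KO ESC gave 0.09 ± 0.15 SE (adjusted p = 0.644). The call against WT XEN was lost without KO XEN 5-3, WT XEN A or WT XEN B, with adjusted p-values up to 0.103.

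Rps14, a component of the small subunit platform, had 636 and 671 CPM in KO XEN, against 401 and 355 CPM in WT XEN, and 622, 681 and 541 CPM in KO ESC. KO XEN lay within the KO ESC range and WT XEN below it, at 1.73-fold higher in KO XEN than in WT XEN (log2 fold change 0.79 ± 0.16 SE, edgeR adjusted p = 0.0058, or 0.0548 without KO XEN 5-3). Rps12 and Rps27a had the largest falls of the small subunit among the genes described. Rps27a, made as a fusion with ubiquitin, had 10.9 and 10.8 CPM in KO XEN, against 12.5 and 10.8 CPM in WT XEN, and 59.5, 56.3 and 58.4 CPM in KO ESC, a 5.35-fold and a 5.00-fold lower level in KO XEN and WT XEN than in KO ESC (adjusted p = 9.44e-06 and 1.89e-05). Rps12 averaged 8.30 ± 2.12 CPM in KO XEN, 6.76 ± 0.210 CPM in WT XEN and 36.5 ± 3.52 CPM in KO ESC (SD, n = 2, 2 and 3), and of its windows 90.1% are shared with other genes.

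Mutations of some ribosomal protein genes cause Diamond-Blackfan anaemia in humans, in which red cell precursors fail. Of 15 such genes, 5 were called higher and 0 lower in KO XEN against WT XEN (median log2 fold change 0.51). Against KO ESC, 1 was called higher and 8 lower in KO XEN (-0.69), and 0 higher and 12 lower in WT XEN (-1.10). The 33.3% called higher against WT XEN stand beside 20% of the set and 22.3% of all tested genes. The 53.3% and 80% called lower stand beside 61.3% and 81.2% of the set, and 34.3% and 30.3% of all tested genes. The 5 were Rps7, Rps19, Rps26, Rpl11 and Rpl15. Rps7 was 1.44-fold higher (adjusted p = 0.0344), a call lost with no filter on low counts and without both C4 libraries, any 1 of the 4 XEN libraries, KO ESC 5-3_1 or KO ESC 5-3_2, up to 0.203. Rps24 and Rpl35a were among the 8, with Rps24 at 254 and 271 CPM in KO XEN, against 300.5 and 335 CPM in WT XEN, and 788, 812 and 759 CPM in KO ESC, a 2.99-fold lower level in KO XEN than in KO ESC (edgeR adjusted p = 2.7e-05). Rpl35a was 3.01-fold lower (adjusted p = 6.17e-05). Rps10 was called in no comparison, with 51.5 and 55.1 CPM in KO XEN, against 41.5 and 33.7 CPM in WT XEN, and 48.4, 59.7 and 41.6 CPM in KO ESC.

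Rpl10l (chr12:66283379-66284401, mm10), a testis-enriched paralog of Rpl10, had 14.5 and 11.5 CPM in KO XEN, against 9.32 and 4.31 CPM in WT XEN, and 66.0, 116 and 124 CPM in KO ESC. It was 7.87-fold lower in KO XEN (log2 fold change -2.98 ± 0.41 SE, edgeR adjusted p = 0.00034) and 15.0-fold lower in WT XEN (-3.90 ± 0.43 SE, adjusted p = 0.000148) than in KO ESC. Its partner Rpl10, the X-linked gene, averaged 18.5 ± 1.01 CPM in KO XEN, 25 ± 4.81 CPM in WT XEN and 75.7 ± 16.1 CPM in KO ESC (SD, n = 2, 2 and 3). It was 4.09-fold and 3.03-fold lower in KO XEN and WT XEN than in KO ESC. Of the windows of Rpl10l 7.60% are shared with another gene, against 92.1% of those of Rpl10.

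Rpl39l, the testis-enriched paralog of Rpl39, had 13.4 and 7.32 CPM in KO XEN, against 9.43 and 10.8 CPM in WT XEN, and 54.4, 59.6 and 56.1 CPM in KO ESC. The differentiated libraries overlapped one another and lay far below KO ESC, at 5.53-fold lower in KO XEN and 5.6-fold lower in WT XEN (edgeR adjusted p = 0.000101 and 0.000138). Rpl39 itself was 2.51-fold and 2.43-fold lower in KO XEN and WT XEN (adjusted p = 9.71e-05 and 0.000169), and the difference between the paralogs was not tested. Rps27l, a paralog of Rps27 that p53 induces, had 188 and 165 CPM in KO XEN, against 129.9 and 117 CPM in WT XEN, and 223, 245 and 207 CPM in KO ESC. It was 1.43-fold higher in KO XEN than in WT XEN (0.51 ± 0.16 SE, adjusted p = 0.0281, lost with no filter on low counts and without both C4 libraries, any 1 of the 4 XEN libraries, KO ESC 5-3_1 or KO ESC 5-3_2, up to 0.15).

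Rpl3l, the striated muscle paralog of Rpl3, was barely detected. It passed the filter on low counts through KO ESC, where it is high, so its calls against KO ESC are no support, and it is 1 of the 49 and 1 of the 65 genes called lower there. It had 0 and 3 counts in KO XEN C4 and 5-3, 4 and 2 counts in WT XEN A and B, and 46, 46 and 65 counts in KO ESC. After scaling for depth, the summed counts of KO ESC stood 18.2-fold above those of KO XEN and 14.3-fold above those of WT XEN. These ratios come from the same counts that passed the filter, so they are descriptions and no support either.

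Measured as log2(CPM + 0.5), the knockout lines differed by less than 1 in each of the 80 genes. The added 0.5 shrinks the difference of genes with few counts. Rpl3l, with 0 and 3 counts in KO XEN C4 and 5-3, could not reach 1 there. The difference of C4 from 5-3, as log2(CPM + 0.5), had a median of -0.02 over the 80 genes in KO XEN (range -0.47 to 0.83) and 0.02 in KO ESC (range -0.86 to 0.63, with the 2 libraries of 5-3 averaged). It passed 0.5 in either direction for 2 genes in KO XEN and 9 in KO ESC, and passed 1 for 0 genes in both. The lowest value in KO ESC was that of Rpl10l and the highest in KO XEN that of Rpl39l. Whether the line difference changed with differentiation was fitted as an interaction (edgeR, 5 groups, 2 residual degrees of freedom). Some of these groups held a single library, so the fit cannot decide whether the lines responded alike. The fitted interaction was 1.20 for Rpl10l and 0.96 for Rpl39l on the log2 scale. Both genes were picked for their line differences, which enter the interaction, so large values were favoured in advance. DESeq2 was not run on this interaction.

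Genes with a pyrimidine run near the start and those without it had medians in the same directions. The 28 genes with it had median log2 fold changes of 0.48 in KO XEN against WT XEN, -0.65 in KO XEN against KO ESC and -1.01 in WT XEN against KO ESC, and the 32 without had 0.30, -1.0 and -1.27. Called higher in KO XEN against WT XEN were 8 of the 28 and 6 of the 32, beside 22.3% of all tested genes. The 25 genes with the ETS letters had medians of 0.49, -0.61 and -0.96 in the same order of comparisons, and the 35 without had 0.33, -0.98 and -1.31.

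The genes lie scattered over 19 chromosomes, with 14 on chromosome 7, 7 each on chromosomes 9, 11 and 17, and 4 on the X. Those on chromosome 7 include Rps19, Rpl13a, Rpl27a and Rps15a, which were called higher in KO XEN against WT XEN, and 10 that were not. In that comparison 20% of the set and 22.3% of all tested genes were called higher. Each of these calls on chromosome 7 was lost under some other setting, and no test by chromosome was made.

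Counts for other lists of the translation machinery stand beside 22.3% of all tested genes called higher and 23.9% lower in KO XEN against WT XEN, 34.8% and 34.3% in KO XEN against KO ESC, and 32.2% and 30.3% in WT XEN against KO ESC. Among 18 further genes known for TOP mRNAs, 8 were called higher and 2 lower in KO XEN against WT XEN (median log2 fold change 0.51). Against KO ESC, 2 were called higher and 10 lower in KO XEN (-0.55), and 1 higher and 12 lower in WT XEN (-1.02). This list shares genes, among them Eef2 and Eif3h, with the elongation and initiation factor lists below. Eef2, the elongation factor that moves the ribosome along the mRNA, had 4810.4 and 4641 CPM in KO XEN, against 3409 and 2754 CPM in WT XEN, and 2454, 2251 and 2111 CPM in KO ESC. The groups did not overlap, and Eef2 was 1.53-fold higher in KO XEN than in WT XEN (edgeR adjusted p = 0.0186) and 2.08-fold higher than in KO ESC (adjusted p = 0.000413). The call against WT XEN was lost without either KO XEN library, WT XEN B, KO ESC 5-3_1 or KO ESC 5-3_2, and without both C4 libraries, with adjusted p-values up to 0.0827. Of the 7 elongation factor genes, 3 were called higher and 0 lower in KO XEN against WT XEN (0.43), 1 higher and 4 lower in KO XEN against KO ESC (-0.51), and 1 higher and 5 lower in WT XEN against KO ESC (-1.18). Eef1g, a subunit of the factor that reloads elongation factor 1A, was 1.65-fold higher in KO XEN than in WT XEN (adjusted p = 0.00783) and 1.5-fold lower than in KO ESC (adjusted p = 0.00827).

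Ribosome assembly factors were called lower more often than higher in all 3 comparisons. Of 50 tested, 2 were called higher and 19 lower in KO XEN against WT XEN (median log2 fold change -0.30), 0 higher and 47 lower in KO XEN against KO ESC (-1.65), and 0 higher and 48 lower in WT XEN against KO ESC (-1.41). The shares called lower were 38%, 94% and 96%, beside 23.9%, 34.3% and 30.3% of all tested genes in the same order. Dkc1, the pseudouridine synthase of rRNA and telomerase RNA, had 18.9 and 23.0 CPM in KO XEN, against 89.8 and 83.7 CPM in WT XEN, and 417, 373 and 394 CPM in KO ESC. It was 4.13-fold lower in KO XEN than WT XEN (edgeR adjusted p = 0.000182) and 18.8-fold lower than in KO ESC (adjusted p = 1.49e-06). Ncl, the nucleolar protein nucleolin, was 4.50-fold lower in KO XEN than WT XEN (adjusted p = 0.000211). Npm1, nucleophosmin, was 2.63-fold lower in KO XEN than WT XEN and 14.8-fold lower than in KO ESC (adjusted p = 0.000675 and 2.36e-06).

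Of 29 initiation factor genes, 5 were called higher (17.2%, beside 22.3% of all tested genes) and 9 lower (31%, beside 23.9%) in KO XEN against WT XEN, with a median log2 fold change of 0.07. Against KO ESC, 18 were called lower and 1 higher in KO XEN (median -0.81), and 20 lower and 0 higher in WT XEN (-0.92). The shares called lower were 62.1% and 69%, beside 34.3% and 30.3% of all tested genes. Eif2s2, a subunit of the factor that brings the initiator tRNA, had 40.9 and 46.2 CPM in KO XEN, against 181 and 247 CPM in WT XEN, and 564, 678 and 667 CPM in KO ESC. It was 4.91-fold lower in KO XEN than WT XEN (edgeR adjusted p = 0.000213). Eif3h, a subunit of initiation factor 3, was 2.37-fold higher in KO XEN than in WT XEN (adjusted p = 0.00456). Of 14 genes of RNA polymerase I transcription, which makes rRNA, 4 were called higher and 3 lower in KO XEN against WT XEN (-0.12). Called lower were 10 in KO XEN against KO ESC (-1.04) and 11 in WT XEN against KO ESC (-1.29), with 0 higher in both.

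Mitochondrial ribosomal proteins serve a separate ribosome. Of 76 tested, 7 were called higher and 7 lower in KO XEN against WT XEN (median 0.12), 5 higher and 41 lower in KO XEN against KO ESC (-0.52), and 2 higher and 43 lower in WT XEN against KO ESC (-0.65). The mTOR pathway and its TOP mRNA regulators stayed near 0 in the median, at 0.00, 0.09 and -0.04 in KO XEN against WT XEN, KO XEN against KO ESC and WT XEN against KO ESC, with 1, 3 and 2 of 15 genes called higher and 5, 5 and 3 called lower. Deptor, an mTOR inhibitor, had 3.85 and 3.20 CPM in KO XEN, against 21.5 and 22.3 CPM in WT XEN, and 111, 109 and 133 CPM in KO ESC, in order and without overlap (adjusted p = 0.000153, 1.47e-06 and 1.91e-05 by edgeR in those 3 comparisons). Akt1s1, another inhibitor, was 5.64-fold higher in KO XEN and 4.42-fold higher in WT XEN than in KO ESC (adjusted p = 8.07e-06 and 2.69e-05). Myc, a transcription factor that acts on ribosomal protein genes, had 90.0 and 68.0 CPM in KO XEN, against 8.27 and 4.40 CPM in WT XEN, and 22.8, 83.6 and 78.7 CPM in KO ESC. WT XEN was lowest, and Myc was 12.5-fold higher in KO XEN than in WT XEN (log2 fold change 3.64 ± 0.63 SE, edgeR adjusted p = 0.00257). Of the 4 Myc family genes tested, 1 was called higher and 1 lower in KO XEN against WT XEN. Mycn was 2.31-fold lower in KO XEN than WT XEN (adjusted p = 0.00524).

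**Figure D5:**
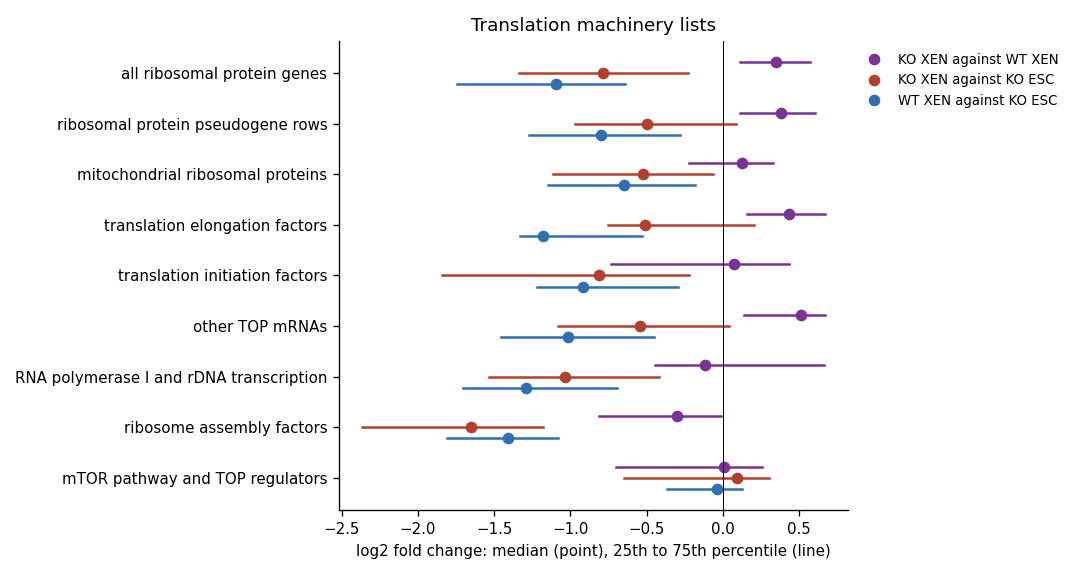
For each list of the translation machinery, points give the median log2 fold change and lines the range from the 25th to the 75th percentile over its tested genes, in the 3 comparisons. The ribosomal protein genes stand at 0.35 in KO XEN against WT XEN, the assembly factors at -0.30, and both lie well below 0 in the comparisons with KO ESC.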

How the data were processed

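Per the labels, poly(A) RNA was extracted with Trizol and made into TruSeq libraries by a reverse-stranded protocol. Per the submitters' processing notes, STAR 2.4.2a and featureCounts 1.4.5-p1 were used with mm10. Strand and multi-mapping settings and the annotation release are not given in the sources used here. The authors deposited raw read counts per gene for 43629 Ensembl IDs. GENCODE M21 (mm10) gave symbols for 42548 of them, and the other 1081 held 0.136% of counts.

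All 7 libraries were fitted together as 3 groups with edgeR 4.0.16 (R 4.3.3): filterByExpr kept 18426 genes, scaling was by TMM, and the quasi-likelihood test was adjusted by Benjamini-Hochberg over those genes, with 4 residual degrees of freedom. CPM values use filtered totals times TMM factors. Depth ran from 13941826 to 48650113 counts, with least precision for KO XEN C4. Alternatives were RLE, upper-quartile and no scaling, TMM without the ribosomal protein genes, no filter, DESeq2 1.42.0, the line as a replicate block, and libraries left out. The lines C4 and 5-3 occur by label in both KO XEN and KO ESC, which pairs these libraries, and the C4 minus 5-3 differences in the 2 states correlated at 0.0566 over genes.

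The genes and the lists of roles, translation machinery and cell type markers were chosen with earlier results of these data known. Genes named come from those lists: the role lists, up to 8 called genes a direction and comparison by log2 fold change among those with at least 10 CPM, the 6 highest per kilobase, names ending in l, and for each other list up to 3 called genes with the smallest adjusted p. Of the genes so named, some are given only in counts, and some single-gene results are not reported here. Shared sequence was measured as exact 50-base windows of the principal transcript found in transcripts of other genes. Promoters came from RefSeq (GRCm38.p6), which matched 60 of the 80 genes.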

Additional observations from a re-analysis of the deposited data

How the results depend on the processing

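No called direction and no median of the set reversed under the alternatives run. In KO XEN against WT XEN, 8 genes were called higher with no filter on low counts and 9 without both C4 libraries, against 16, and 0 were called lower without both C4 libraries, against 1. Leaving out 1 library at a time gave 2 to 15 called higher, 0 to 2 called lower and medians of 0.24 to 0.43. The median was 0.40 with upper-quartile scaling and 0.27 with no filter. Against KO ESC, 1 gene in place of 2 was called higher in KO XEN with upper-quartile scaling, library totals, no filter and without both C4 libraries, and leaving out 1 library gave 1 to 3. The medians there were -0.91 with upper-quartile scaling, -0.86 with library totals and -0.85 with no filter, and -0.96 to -0.74 with 1 library left out. In WT XEN against KO ESC the median was -1.27 with upper-quartile scaling and -1.19 with library totals. Upper-quartile scaling put the median of all genes at -0.19 in KO XEN against KO ESC and -0.20 in WT XEN against KO ESC, against -0.08 and -0.03. The causes of these shifts were not tested. Adding pseudogene rows raised the share of counts to 2.31% in KO XEN, against 1.77% in WT XEN, and 3.33% in KO ESC.

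With the line as a replicate block, 15 genes were called higher and 1 lower in KO XEN against WT XEN, 2 and 47 in KO XEN against KO ESC, and 0 and 64 in WT XEN against KO ESC. DESeq2 gave 17 and 1, 2 and 50, and 0 and 66 in the same order. Of the named ribosomal protein genes, 1 of 15 kept its call under every alternative in KO XEN against WT XEN, 27 of 31 in KO XEN against KO ESC and 36 of 41 in WT XEN against KO ESC. The lowest levels, such as that of Rpl3l, are limited by counts.

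Log2 fold changes of 16 results, none called here or under the setting that turned them, took the other sign under some setting. In KO XEN against WT XEN, leaving out 1 library gave -0.28 to 0.13 for Rpl17, -0.079 to 0.20 for Rpl22, -0.14 to 0.20 for Rpl3, -0.24 to 0.074 for Rpl39, -0.47 to 0.32 for Rpl39l, -4.67 to 0.16 for Rpl3l, -0.099 to 0.0083 for Rpl4, -0.016 to 0.44 for Rps2 and -0.12 to 0.30 for Rps3a1. In KO XEN against KO ESC it gave -0.13 to 0.59 for Myc, -0.19 to 0.22 for Rpl19, -0.036 to 0.16 for Rplp0, -0.11 to 0.21 for Rps10 and -0.089 to 0.13 for Rps14, and in WT XEN against KO ESC -0.21 to 0.46 for Rplp1 and -0.031 to 0.19 for Rps19.

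Upper-quartile scaling turned Rpl17 to 0.010, Rpl39 to 0.011 and Rpl4 to 0.056 in KO XEN against WT XEN, Rpl19 to -0.026, Rplp0 to -0.0078, Rps10 to -0.025 and Rps14 to -0.033 in KO XEN against KO ESC, and Rplp1 to -0.023 and Rps19 to -0.089 in WT XEN against KO ESC. Library totals gave 0.017 for Rpl4 and -0.0045 for Rps19 in those comparisons, and TMM without the ribosomal protein genes gave 0.0027 for Rpl4. With no filter Rpl3 was at -0.0043 and Rpl39l at -0.068 in KO XEN against WT XEN, and with the line as a replicate block Rpl39l was at -0.013. Without both C4 libraries the values there were -0.47 for Rpl39l, 0.16 for Rpl3l and -0.12 for Rps3a1, and Myc was at -0.26 in KO XEN against KO ESC. The causes were not tested.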
